A study of Mus musculus with 2 samples.

Results

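The 8 genes described here, of 32285 counted, make cholesterol or sense and carry it. They were given by name: Hmgcs1, Fdft1, Sqle, Cyp51 and Sc5d are 5 enzymes of the synthesis pathway, and Insig2, Srebf2 and Stard4 are 3 genes of sterol sensing and transport. Their UMIs (unique molecular identifiers, each standing for 1 captured transcript) were summed over barcodes of 3 sizes, 200 to under 400, 500 to under 1000, and 1000 or more UMIs, and scaled to CPM, counts per 1000000 UMIs of the same barcodes. All 8 had at least 20 UMIs over both libraries in every size band.

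The 2 libraries were made from dissociated livers of 1 mouse each. Both mice carried floxed alleles of Glul, the gene of glutamine synthetase (GS), bore no tumour, and were infected at 11 weeks with an AAV8 vector, a virus that enters hepatocytes efficiently. The control mouse was given the GFP vector, and the knockout mouse (GS_KO) the Cre vector, which deletes the floxed alleles. Livers were taken 2 weeks later by collagenase perfusion, and hepatocytes were combined with non-parenchymal cells before 10x 5-prime library preparation. The labels name neither the promoter that drives Cre nor the hour of collection, and they speak of both single-cell and single-nucleus preparation.

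With 1 mouse and 1 library a side, conditions were not tested against each other and no p-value is given. A difference between the libraries cannot be told apart from a difference between mice, digestions or library preparations. Intervals in brackets are exact 95% Poisson intervals for a level and the matching conditional intervals for a log2 ratio of GS_KO over control, and they cover counting error only. The bands of 200 to under 400, 500 to under 1000 and 1000 or more UMIs held 116552, 11989 and 1703 control barcodes and 143687, 10037 and 1834 GS_KO barcodes, with 38070357, 7923353 and 2182260 control UMIs and 43036904, 6699943 and 2443469 GS_KO UMIs. In the large barcodes, those of 1000 or more UMIs, the deleted gene Glul stood at 124 CPM for control and 31.5 CPM for GS_KO. Which exons Cre removes is not in the labels, so 5-prime reads may come from outside them. The summed level of the 11 hepatocyte markers found in the files was 59758 and 48707 CPM there. The whole share of hepatocyte RNA was not measured. The libraries shared 8108 barcode sequences, of which 1 was a large barcode in both.

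Cholesterol is built from acetyl units through mevalonate, squalene and lanosterol, mostly in the endoplasmic reticulum, and the liver is a main site of it. The transcription factor SREBP2, encoded by Srebf2, switches the enzymes on when sterols are scarce. It is held in the endoplasmic reticulum by the escort protein SCAP and the INSIG proteins while sterols are plentiful. The genes are read below in the order of the pathway and then of its control.

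The windows upstream of the genes are shown first, because the enzymes are known as targets of one factor and the sterol response is read from short elements near the start of transcription. RefSeq windows on GRCm38.p6 (250 bases before to 50 after a start) matched 5 of the 8 genes, with 7 windows in all, 3 of them for Insig2. For each gene the most upstream window is printed, 5' to 3', and ends before the more upstream of the RefSeq and GENCODE M21 starts. Hmgcs1 is on the plus strand at chr13:119690101-119690350, Cyp51 on the minus strand at chr5:4104747-4104947, Sc5d on the minus strand at chr9:42264301-42264550, Insig2 on the minus strand at chr1:121332590-121332839 and Srebf2 on the plus strand at chr15:82147019-82147180. Capitals mark, on either strand, TCACCCCA (the core of a sterol regulatory element), CCAAT (the NF-Y box), GGGCGG (the Sp1 box) and CACGTG (the E-box).
Hmgcs1: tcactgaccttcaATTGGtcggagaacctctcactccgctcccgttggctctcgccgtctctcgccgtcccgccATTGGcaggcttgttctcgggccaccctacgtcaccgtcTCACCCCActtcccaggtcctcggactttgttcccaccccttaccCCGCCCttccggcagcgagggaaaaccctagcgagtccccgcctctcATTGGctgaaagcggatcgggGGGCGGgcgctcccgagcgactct
Cyp51: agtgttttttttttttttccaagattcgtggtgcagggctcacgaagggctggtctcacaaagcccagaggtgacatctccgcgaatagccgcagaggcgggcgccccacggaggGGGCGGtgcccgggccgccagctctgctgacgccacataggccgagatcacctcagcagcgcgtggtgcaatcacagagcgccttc
Sc5d: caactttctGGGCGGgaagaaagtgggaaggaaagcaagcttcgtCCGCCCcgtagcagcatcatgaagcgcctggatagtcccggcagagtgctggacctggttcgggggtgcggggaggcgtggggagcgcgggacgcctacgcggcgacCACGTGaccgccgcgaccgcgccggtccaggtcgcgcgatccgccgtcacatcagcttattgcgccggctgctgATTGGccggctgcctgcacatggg
Insig2: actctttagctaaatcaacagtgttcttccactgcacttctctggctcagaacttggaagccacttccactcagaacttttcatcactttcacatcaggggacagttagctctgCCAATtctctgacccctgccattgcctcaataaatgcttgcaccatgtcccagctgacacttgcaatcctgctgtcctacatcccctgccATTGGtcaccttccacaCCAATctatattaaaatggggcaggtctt
Srebf2: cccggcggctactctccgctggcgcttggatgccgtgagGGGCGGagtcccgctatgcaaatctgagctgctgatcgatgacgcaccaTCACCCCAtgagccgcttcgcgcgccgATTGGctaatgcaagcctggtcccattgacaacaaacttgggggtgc

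TCACCCCA was found upstream of Hmgcs1, with its first base at -137 from the RefSeq start, and upstream of Srebf2, at -162. It is held by 1.56% of the 32851 windows of 300 bases in the table. CCAAT occurred 4 times in the Hmgcs1 window (1 of them after the start and so not printed), 3 times in the Insig2 window printed and once each for Cyp51 (also past the end of the printed stretch), Sc5d and Srebf2, against 37.4% of all windows with at least 1. GGGCGG, held by 35.7% of all windows, was present for Hmgcs1, Cyp51, Sc5d and Srebf2 and absent from the printed Insig2 window, although the other 2 Insig2 windows held 1 each. CACGTG, held by 7.15%, was found in the Sc5d window only. These are matches of letters, searched on both strands over the whole 300 bases, and the elements were chosen with the windows in view. Only these exact letters were searched, so a window without a match may still hold another form of the element.

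All 5 synthesis enzymes were higher in the GS_KO library in each of the 3 size bands, by log2 ratios between 0.35 and 2.34. Of all measured genes, 48.9%, 60.0% and 52.6% were higher to any degree from the smallest to the largest band. In large barcodes 4 of the 5 were at least 2-fold higher, beside 12.8% of the 10192 measured genes (genes with at least 20 UMIs over both libraries). In barcodes of 200 to under 400 UMIs it was 3 of 5, beside 13.2% of 13688 genes, and in those of 500 to under 1000 UMIs 3 of 5, beside 15.6% of 12349 genes. The members were chosen with earlier results on these data known, so these shares are not an independent comparison. The median log2 ratio of the 5 was 1.02, 1.14 and 1.46 from the smallest to the largest band, and that of all measured genes was -0.01, 0.15 and 0.04. Summed over the 5, the level in large barcodes was 326 CPM (303 to 351) for control and 1066 CPM (1026 to 1108) for GS_KO, or 1.71 (1.59 to 1.83) as log2 ratio.

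Hmgcs1, cytosolic HMG-CoA synthase, makes HMG-CoA early in the pathway and showed the widest difference among the 5 enzymes in large barcodes. Its level there was 55.4 CPM (46.0 to 66.3) for control and 281 CPM (261 to 303) for GS_KO, which gives a log2 ratio of 2.34 (2.06 to 2.63). Of the genes measured in those barcodes, 2.98% had a higher ratio. In barcodes of 200 to under 400 UMIs it stood at 141 CPM (138 to 145) and 383 CPM (377 to 389), and the log2 ratio was 1.44 (1.39 to 1.48). The gap between the libraries was therefore wider in large than in small barcodes beyond counting error. The level was lower in large than in the smallest barcodes in both libraries, and more so in the control. The log2 ratio of large over small was -1.35 (-1.62 to -1.09) for control and -0.45 (-0.56 to -0.34) for GS_KO.

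Fdft1, squalene synthase, commits the pathway to sterols. It stood at 35.7 CPM (28.3 to 44.6) in control and 98.6 CPM (86.6 to 112) in GS_KO large barcodes, a log2 ratio of 1.46 (1.09 to 1.85). In the smallest band the levels were 67.9 and 97.7 CPM and the log2 ratio 0.52 (0.45 to 0.60). The GS_KO level was thus nearly level over the bands, from 97.5 to 98.6 CPM, while the control level was lower in larger barcodes. Fdft1 (chr14:63145150-63179578, GRCm38) overlaps Ctsb, a cathepsin gene on the opposite strand, which was also higher in GS_KO large barcodes, at 144 and 214 CPM (log2 ratio 0.57). The sources used here do not say whether counting used strand, so reads of the pair are not known to be separate.

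Sqle, squalene epoxidase, an oxygen-dependent point of control in the pathway (chr15:59315077-59331192, GRCm38), differed by about the same ratio in every band. It stood at 25.4 and 67.1 CPM in the smallest barcodes, 25.1 and 67.6 CPM in the middle band, and 24.3 (18.2 to 31.8) and 60.6 CPM (51.2 to 71.2) in large barcodes. The log2 ratios were 1.40 (1.30 to 1.51), 1.43 (1.19 to 1.68) and 1.31 (0.86 to 1.80). Their intervals overlap.

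Cyp51, lanosterol demethylase, differed least of the 5 enzymes in the middle and large bands. Its levels were 135 and 193 CPM in the smallest barcodes, 110 and 140 CPM in the middle band, and 73.8 (62.8 to 86.1) and 106 CPM (93.9 to 120) in large barcodes. The log2 ratios were 0.51 (0.46 to 0.56), 0.35 (0.21 to 0.48) and 0.53 (0.24 to 0.82), all under the 2-fold limit. Of the genes measured in large barcodes, 25.0% had a higher ratio than Cyp51. The gene overlaps Akap9 on the opposite strand, whose log2 ratio there was 0.09 (-0.08 to 0.25).

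Sc5d, which places a late double bond in the sterol ring, stood at 137 CPM (122 to 153) in control and 519 CPM (491 to 549) in GS_KO large barcodes. The log2 ratio was 1.92 (1.74 to 2.11), against 1.02 (0.99 to 1.05) in the smallest barcodes, where the levels were 282 and 573 CPM. As for Hmgcs1, the interval in large barcodes lies wholly above that in small ones.

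**Figure D1:**
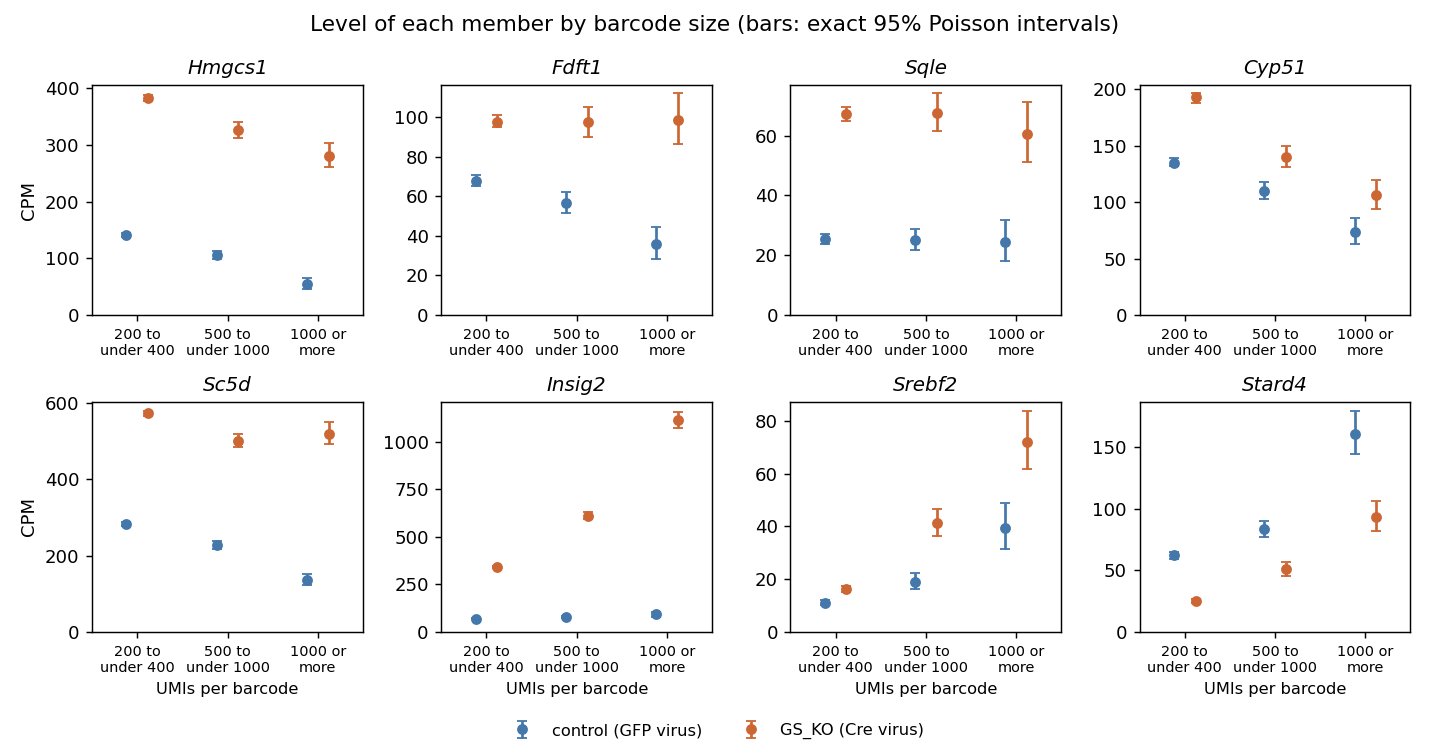
Level of each of the 8 genes in CPM (linear axes from 0) against barcode size in UMIs, for the control (blue) and GS_KO (orange) libraries; bars are exact 95% Poisson intervals and each point is 1 library. The GS_KO points lie above the control points for all but Stard4, where they lie below, and Insig2 reaches 1113 CPM in large GS_KO barcodes beside 93.0 CPM in control ones.

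The 3 sensing and transport genes did not move together. Insig2 had the largest ratio of all 8 genes, Srebf2 was higher by an amount near that of the lesser enzymes, and Stard4 was lower. Their summed level therefore mostly follows Insig2: it was 293 CPM in control and 1278 CPM in GS_KO large barcodes, a log2 ratio of 2.12 (2.00 to 2.25). In that band 1 of 3 was at least 2-fold higher, beside 12.8% of measured genes, and 0 of 3 at least 2-fold lower, beside 5.6%.

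Insig2, the INSIG form whose message is abundant in liver, stood at 93.0 CPM (80.7 to 107) in control and 1113 CPM (1071 to 1155) in GS_KO large barcodes. The log2 ratio was 3.58 (3.37 to 3.79), or 11.9-fold, and 1.29% of measured genes had a higher one. In the middle band the levels were 77.1 and 611 CPM (2.98, 2.86 to 3.11), and in the smallest barcodes 69.3 and 342 CPM (2.30, 2.24 to 2.36). The ratio was larger in each larger band with intervals that do not overlap. The control level in large barcodes was 1.34-fold that in the smallest, and the GS_KO level 3.26-fold. Which of the Insig2 starts the transcripts came from cannot be read from counts per gene.

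Insig1, its close relative and an SREBP target in its own right, differed in another way. In large barcodes it stood at 139 CPM (124 to 155) for control and 344 CPM (321 to 368) for GS_KO, which gives a log2 ratio of 1.31 (1.12 to 1.5). In the smallest barcodes it was slightly lower in GS_KO, at 92.2 and 81.2 CPM (-0.18, -0.25 to -0.12). The direction of Insig1 thus depended on barcode size and that of Insig2 did not.

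Srebf2, the gene of SREBP2 itself, stood at 39.4 CPM (31.5 to 48.7) in control and 72.0 CPM (61.8 to 83.5) in GS_KO large barcodes, a log2 ratio of 0.87 (0.49 to 1.26). It stood at 19.1 and 41.2 CPM in the middle band (1.11, 0.82 to 1.41) and at 11.1 and 16.2 CPM in the smallest (0.55, 0.37 to 0.73). Of genes measured in large barcodes, 15.4% had a higher ratio. Counts were low, with 86 control and 176 GS_KO UMIs in large barcodes, so the interval there is wide.

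Stard4, a carrier that moves cholesterol between membranes, was the 1 gene of the 8 that was lower in the GS_KO library, and it was so in every band. Of all measured genes, 51.1%, 40.0% and 47.4% were lower to any degree from the smallest to the largest band. It stood at 161 CPM (144 to 179) in control and 93.3 CPM (81.6 to 106) in GS_KO large barcodes, a log2 ratio of -0.78 (-1.03 to -0.54). In the middle band the levels were 83.4 and 51.0 CPM (-0.71, -0.90 to -0.52). In the smallest barcodes they were 62.1 and 25.3 CPM (-1.29, -1.40 to -1.19), which is past the 2-fold limit, as were 4.25% of measured genes in that direction. Of genes measured in the smallest barcodes, 2.4% had a lower ratio than Stard4. In the middle band, where Stard4 was not past the limit, 3.7% of measured genes were 2-fold or more lower.

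**Figure D2:**
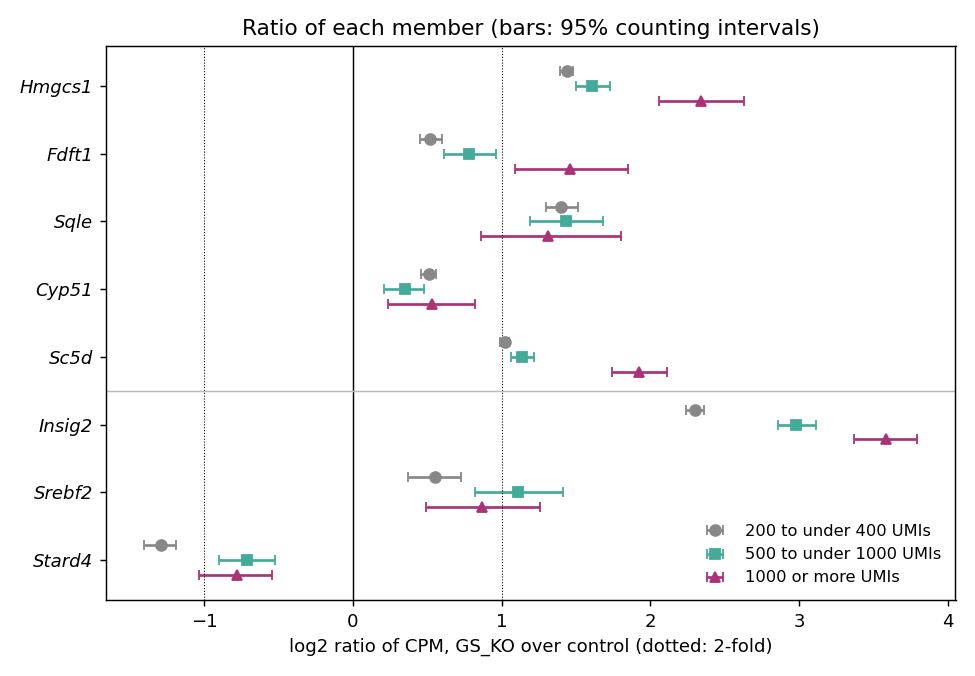
The log2 ratio of CPM, GS_KO over control, of each gene in the 3 size bands, with 95% counting intervals; the grey line parts the 5 enzymes (above) from the 3 sensing and transport genes, and dotted lines mark 2-fold. Insig2 lies furthest to the right in all bands, at 2.30, 2.98 and 3.58, and Stard4 is alone to the left of 0.

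Within each library the enzymes and the other genes ran in different directions along barcode size. The summed enzymes were lower in large than in the smallest barcodes, with a log2 ratio of large over small of -1.0 (-1.11 to -0.89) for control and -0.30 (-0.36 to -0.24) for GS_KO. Sqle was an exception, with intervals that include 0 in both libraries, as was Fdft1 in the GS_KO library. Insig2, Srebf2 and Stard4 were higher in large barcodes in both libraries. For Srebf2 the ratio was 1.84 (control) and 2.15 (GS_KO), for Stard4 1.37 and 1.88, and for Insig2 0.43 and 1.70. Malat1, a long noncoding RNA that stays in the nucleus, ran the same way, from 1709 to 19613 CPM for control and from 1365 to 37630 CPM for GS_KO. In large barcodes Malat1 was thus higher in the GS_KO library and in the smallest it was lower, and its part in the ratios above was not tested. Of the 4 nuclear RNAs measured in large barcodes, Malat1 included, 2 were higher and 2 lower in the GS_KO library, with a median log2 ratio of 0.06 and Malat1 the highest at 0.94.

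**Figure D3:**
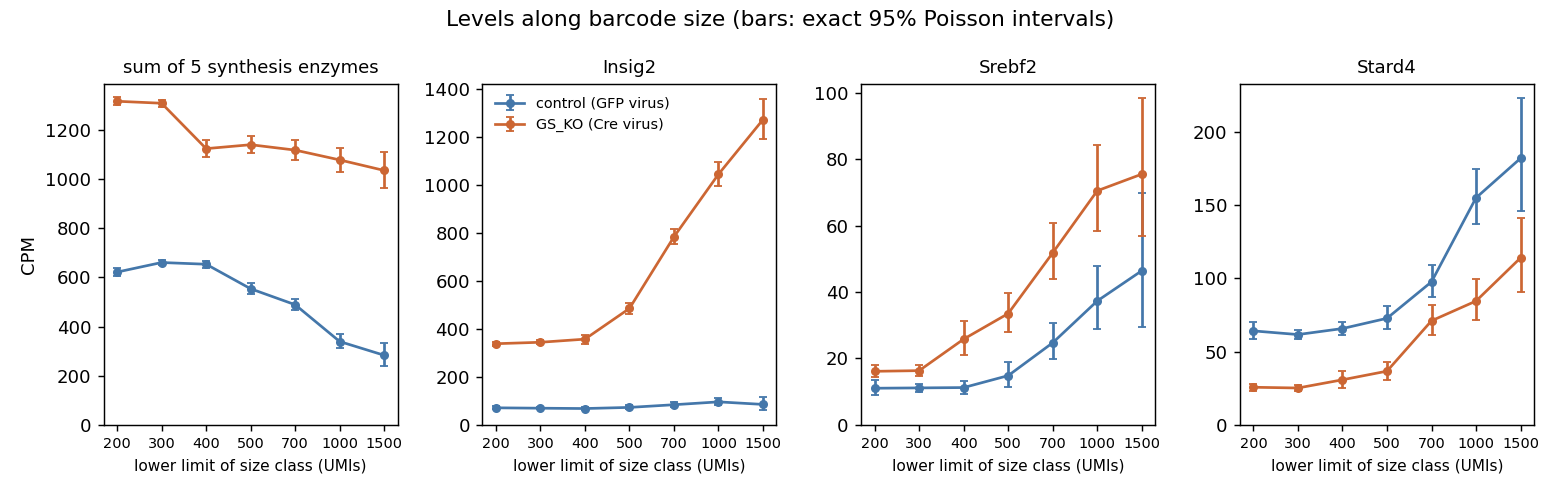
CPM of the summed enzymes, Insig2, Srebf2 and Stard4 in 7 classes of barcode size (horizontal axis: lower limit in UMIs; vertical axes linear from 0), control in blue and GS_KO in orange, with exact 95% Poisson intervals. The enzyme sum goes from 622 to 283 CPM for control and from 1318 to 1036 CPM for GS_KO, while Insig2 goes from 338 to 1273 CPM in the GS_KO library and stays between 67.6 and 95.4 CPM in the control.

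With free RNA taken off the large barcodes (the profile of the 200 to under 400 band at the median UMIs of all barcodes), 3 enzymes moved by over 1.5 times. The log2 ratio of Hmgcs1 became 3.44, that of Fdft1 2.05 and that of Sc5d 2.61. These rest on few control UMIs left after the subtraction: 36.2 of 121 for Hmgcs1, 37.3 of 78 for Fdft1 and 130 of 299 for Sc5d. They depend on the amount of free RNA assumed, and no interval is given for them. Insig2 was then at 3.71, Sqle at 1.28, Cyp51 at 0.68, Srebf2 at 0.82 and Stard4 at -0.80. The correction removed 27.5% of control and 22.8% of GS_KO UMIs.

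Single large barcodes carried few UMIs of any enzyme. With each large barcode thinned to 1000 UMIs, 5.34% of control barcodes (4.32 to 6.52, exact binomial) and 23.6% of GS_KO barcodes (21.7 to 25.6) held Hmgcs1, or 6.87% and 28.1% before thinning. Sc5d was found in 12.6% and 39.5% (15.6% and 47.6% before thinning), and Stard4 in 13.9% and 8.23% (18.2% and 11.3%). Insig2 was held by 8.98% of control barcodes (7.67 to 10.4) and 60.1% of GS_KO barcodes (57.8 to 62.3), with 11.0% and 68.5% before thinning, and up to 11 UMIs in 1 GS_KO barcode. Most cell types can make sterols, so no class of cells serves as a blank for these genes, and free RNA takes part in all these shares. At least 1 of the 5 enzymes was present in 27.4% (control) and 63.1% (GS_KO) of barcodes, and at least 2 in 3.23% and 20.7%.

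The rest of the pathway was read from a list of 20 synthesis enzymes, the 5 above included. In large barcodes 19 were measured, of which 9 were at least 2-fold higher in the GS_KO library and 0 at least 2-fold lower, beside 12.8% and 5.6% of all measured genes. In all 17 were higher to any degree and 2 lower, where 52.6% of measured genes were higher. The median log2 ratio of the list was 0.74. Without the 5 members, 5 of 14 measured enzymes were at least 2-fold higher and the median was 0.68. In the smallest barcodes 7 of 20 were at least 2-fold higher (median 0.61), beside 13.2% of all measured genes, and in the middle band 6 of 20 (median 0.78), beside 15.6%. The list was drawn up with earlier results on these libraries known.

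Among the other enzymes the widest differences were in Mvk, mevalonate kinase, at 3.21 and 9.82 CPM (log2 ratio 1.54, 0.36 to 3.07, on 7 and 24 UMIs), and Msmo1, a C4-methylsterol oxidase, at 60.5 and 161 CPM (1.41, 1.12 to 1.71). Dhcr7, the last reductase of the pathway, stood at 10.1 and 26.6 CPM (1.38, 0.68 to 2.17), and Nsdhl at 15.6 and 38.5 CPM (1.29, 0.72 to 1.91).

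Of the 14 genes of sterol sensing and SREBP processing, 3 were at least 2-fold higher in large barcodes (Insig2, Insig1 and Mbtps2) and 0 at least 2-fold lower, beside 12.8% and 5.6% of all measured genes, with 7 higher and 7 lower to any degree and a median of 0.05. Mbtps2, the second protease that frees SREBP, stood at 15.1 and 31.9 CPM (1.07, 0.47 to 1.71), and its log2 ratio was 0.28 (-0.05 to 0.60) in the smallest barcodes. Scap, the SREBP escort, stood at 32.1 and 39.3 CPM (0.29, -0.17 to 0.76). Srebf1, which drives fatty acid synthesis, was lower at 118 and 65.9 CPM (-0.84, -1.14 to -0.55), in the opposite direction to Srebf2. Rnf145, a ubiquitin ligase of this system, was lower at 37.1 and 19.2 CPM (-0.94, -1.50 to -0.41).

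Of 9 genes of cholesterol uptake, 8 were measured in large barcodes, 1 was at least 2-fold higher, a share near the 12.8% of all measured genes, and the median log2 ratio was 0.35. That gene was Scarb1, the HDL receptor, at 69.7 and 231 CPM (1.73, 1.47 to 2.00). Lipa, the lysosomal lipase, lay at 0.76 (0.46 to 1.06) and Lrp1, a remnant receptor, at 0.47 (0.32 to 0.62).

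Of 12 genes of intracellular sterol transport, 11 were measured, none was past 2-fold in either direction in large barcodes (12.8% of all measured genes were higher by that much and 5.6% lower), and the median was 0.10. Stard4 had the lowest log2 ratio among them, and Stard5, of the same protein family, was lower too, at 130 and 88.0 CPM (-0.56, -0.82 to -0.30). Gramd1c, of a family of endoplasmic reticulum sterol carriers, was higher, at 180 and 334 CPM (0.89, 0.71 to 1.07), and Osbpl8 stood at 331 and 463 CPM (0.49). Osbpl2 was at 0.46 in large and -0.71 in the smallest barcodes. Of 11 genes of export and esterification, 10 were measured, 2 were at least 2-fold higher beside the same 12.8%, and the median was 0.26. These were Soat2, which esterifies cholesterol in hepatocytes, at 14.2 and 56.5 CPM (1.97, 1.42 to 2.60), and Soat1, on 5 and 15 UMIs. Soat2 was at 0.09 (-0.13 to 0.31) in the smallest barcodes. Lpcat3, a phospholipid acyltransferase, lay at 0.86, and Nceh1, a cholesteryl ester hydrolase, at -0.56 (-1.16 to 0.03).

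**Figure D4:**
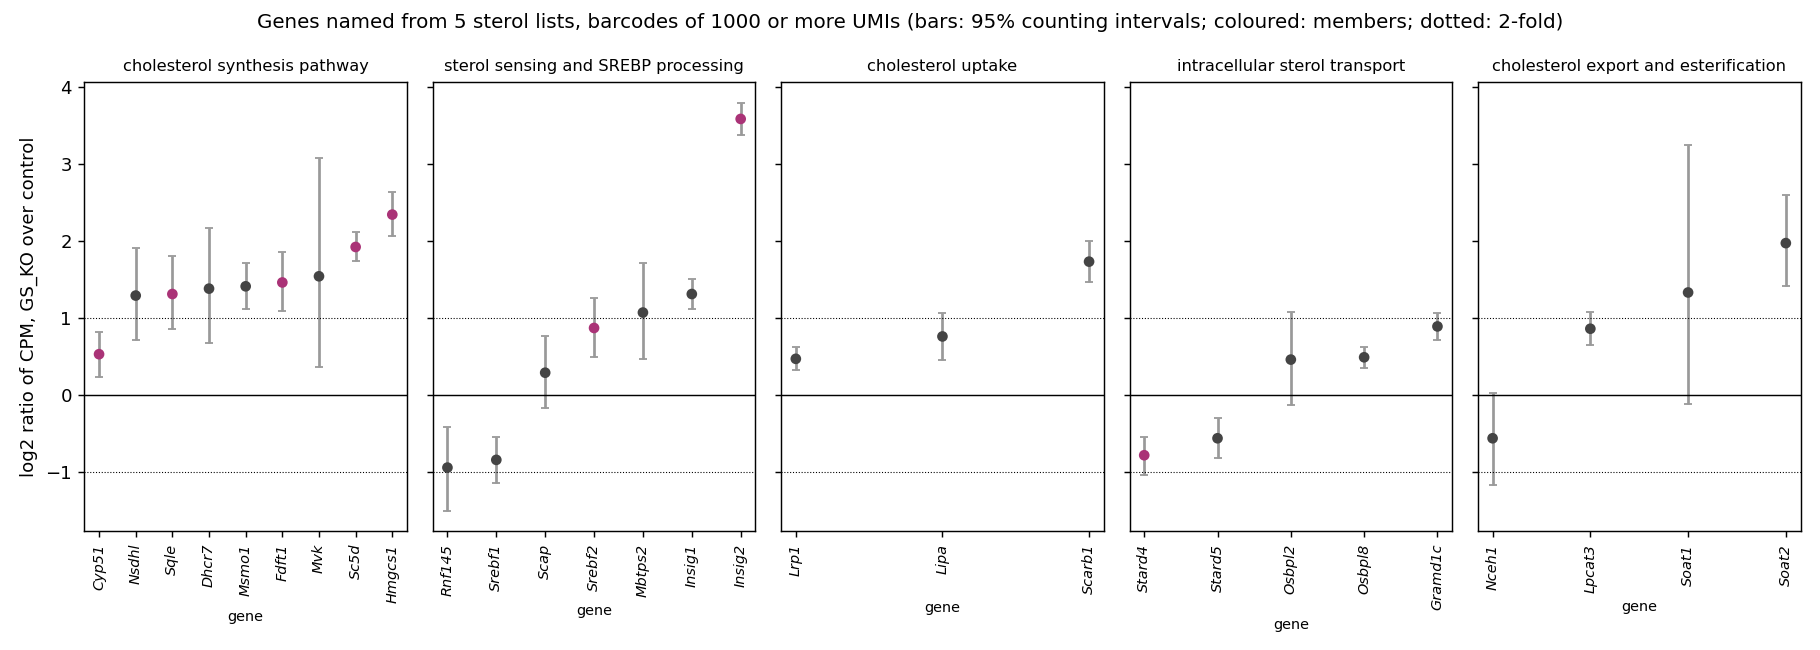
The log2 ratio of CPM, GS_KO over control, in barcodes of 1000 or more UMIs for the genes named from 5 sterol lists, which are the 8 members and mostly those with the largest ratios, sorted within each list; bars are 95% counting intervals, the 8 members are coloured and dotted lines mark 2-fold. The synthesis genes shown reach from 0.53 to 2.34, whereas those of the sensing list lie on both sides of 0 with Insig2 apart at 3.58.

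Along the liver lobule, from the portal vein to the central vein, hepatocytes divide their work, and cholesterol synthesis is known as a periportal task. Large barcodes were ranked within each library on the share of UMIs in periportal genes less that in pericentral genes and split in 3 equal parts, which are not matched between the libraries: the pericentral genes summed to 13941 CPM in the most pericentral control part and 7158 CPM in that of GS_KO. In the GS_KO library the summed enzymes stood at 852 CPM (790 to 917) in the most pericentral part, 1150 CPM (1078 to 1226) in the middle and 1204 CPM (1128 to 1282) in the most periportal part. In the control library they stood at 355 (312 to 402), 306 (268 to 349) and 319 CPM (280 to 362), with overlapping intervals. A slope toward the portal side was thus seen beyond counting error in the GS_KO library and not in the control library at this depth.

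Sc5d ran in opposite directions in the 2 libraries, from 172 (143 to 206) to 125 CPM (101 to 153) in the control and from 436 (392 to 483) to 605 CPM (552 to 662) in the GS_KO library, though its control intervals overlap. Insig2 ran against the enzymes in the GS_KO library, from 1230 CPM (1155 to 1308) in the most pericentral part to 997 CPM (929 to 1069) in the most periportal. Stard4 was higher toward the portal side in the control library, at 120 (96.0 to 149), 171 and 188 CPM (158 to 222). In the GS_KO library it ran the same way, at 67.5 (51.0 to 87.6), 107 and 106 CPM (84.4 to 131), though these outer intervals overlap. The direction of the difference between libraries was the same in all 3 parts for each gene, but the intervals of Cyp51 in the pericentral part (0.03, -0.48 to 0.56) and of Srebf2 in the middle part (0.36, -0.22 to 0.97) reached 0.

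**Figure D5:**
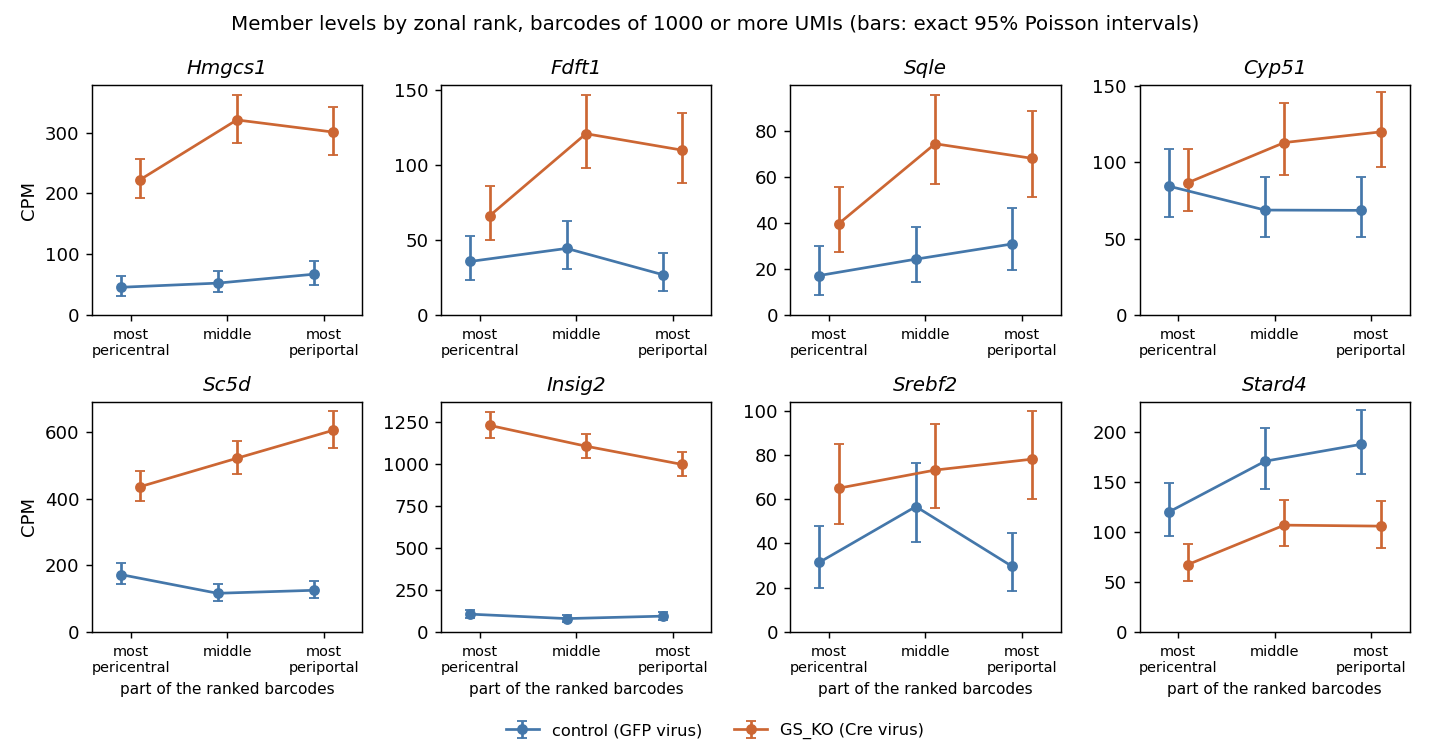
CPM of each gene (linear axes from 0) in the 3 parts of the large barcodes ranked from most pericentral to most periportal within each library, control in blue and GS_KO in orange, with exact 95% Poisson intervals. In the GS_KO library Sc5d is highest in the periportal part at 605 CPM and Insig2 in the pericentral part at 1230 CPM.

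Markers of other cell types differed between the libraries as well. In large barcodes the summed 12 macrophage markers stood at 98.1 CPM for control and 586 CPM for GS_KO, with 11 of 12 higher in GS_KO and 0 of 12 at 0 UMIs in either, and 37 control and 173 GS_KO barcodes held at least 2 of them. The 10 neutrophil or monocyte markers stood at 22.9 and 169 CPM, with 6 of 10 at 0 UMIs for control and 0 of 10 for GS_KO. Sums for endothelial markers were 129 and 120 CPM, for stellate cell markers 256 and 231 CPM, for cholangiocyte markers 35.3 and 156 CPM, for B or plasma cell markers 110 and 266 CPM, and for T or NK cell markers 0.916 and 4.5 CPM. Markers at 0 UMIs numbered 8 and 5 of 10 for cholangiocytes, 4 and 2 of 10 for B or plasma cells, and 9 and 5 of 10 for T or NK cells. These differences stand beside those of the 8 genes. The ratios of the members lay within their intervals over all large barcodes, Cyp51 and Fdft1 included, in barcodes without any such marker (1133 control and 812 GS_KO). There the summed enzymes had a log2 ratio of 1.74 (1.59 to 1.90), Insig2 3.66 (3.40 to 3.93), Srebf2 1.07 (0.55 to 1.60) and Stard4 -0.73 (-1.07 to -0.40). These barcodes are part of all large barcodes, so the likeness is no separate test of cell mixture. In barcodes with at least 2 markers of a class (151 control and 301 GS_KO) the summed enzymes stood at 1.48 (1.11 to 1.89). There the intervals of Cyp51 (0.1, -0.76 to 1.07), Sqle (0.21, -1.17 to 1.93) and Srebf2 (0.29, -0.77 to 1.55) included 0. Those of the other members did not. The part of cell mixture in the ratios was not tested. In barcodes with at least 2 macrophage markers Insig2 stood at 82.5 CPM on 4 control UMIs and at 1042 CPM on 252 GS_KO UMIs, near its level in all large barcodes. The summed enzymes had a log2 ratio of 2.07 (1.23 to 3.22) there. Sqle alone among the enzymes was lower, at -1.18 (-3.61 to 2.4) on 2 control and 5 GS_KO UMIs. Hepatocyte markers stood at 53068 and 42089 CPM in the same barcodes. Markers of both cell types were thus counted in the same barcodes.

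The clock of the liver, which times much of its sterol metabolism, also stood apart between the libraries. Of 15 clock genes, 14 were measured in large barcodes, and 5 were at least 2-fold higher and 7 at least 2-fold lower in the GS_KO library, beside 12.8% and 5.6% of all measured genes. Arntl, the core activator, stood at 1.83 and 116 CPM, Npas2, its partner, at 0.458 and 72.0 CPM, and the output gene Dbp at 73.3 and 1.64 CPM. Ciart, a repressor, had 64 control UMIs and 1 GS_KO UMI. Summed over the list the level was 1078 and 739 CPM. The hour of collection is not in the labels, and the part of the clock in the differences of the 8 genes was not tested.

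Genes whose ratios in the 3 bands came nearest to the mean of the 5 enzymes (0.98, 1.06 and 1.51) were sought among 7461 candidates with at least 50 UMIs in every band, by Euclidean distance over those 3 values. Among the 5 nearest were Rab32 (distance 0.0694), Pnp (0.0781), Net1 (0.102) and Golph3l (0.118). The enzymes themselves lay between 0.419 (Sc5d) and 1.30 (Cyp51) from their mean. The 5 nearest genes were picked as the closest of the 7461, so their smaller distances say nothing about how alike the enzymes are. Nearest to Stard4 were Klb (0.132), Mat1a (0.196) and Rrn3 (0.209). The 3 values come from the same 2 libraries, so likeness here describes only these ratios.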

How the data were processed

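RNA was counted per barcode (cells or nuclei, which the labels do not settle) in 2 libraries, 1 control and 1 GS_KO liver. The authors deposited raw UMI counts per gene and barcode. Per the file headers, counting used Cell Ranger 8.0.0, and per the submitters' processing notes the build was mm10. The sources used here do not say how barcodes were chosen for deposit. The 166037 control and 175937 GS_KO barcodes held 352 and 304 UMIs at the median.

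Counts were summed per size band and scaled to CPM, and log2 ratios had 0.5 UMIs added to each sum. With 1 library per group no count model with replicates could be fitted. Functions were tested on simulated data. No doublet caller was run, and cells were not clustered. Other-cell groups held at least 2 different markers of a class. Of 201 list genes, 1 was not among the gene names.

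The 8 members and all lists were chosen with earlier results on these data known. All members are named, and from each further list the 4 measured genes with the largest ratio in large barcodes, with Insig1, Scap and Srebf1 in any case; some genes under this rule are not reported here. Ctsb and Akap9 are named for their overlap with members, and Malat1 as a nuclear RNA. Alternatives were other denominators, narrower bands, free RNA taken off, other-cell barcodes left out and other filters. Python 3.11.15, numpy 2.4.6, scipy 1.17.1, pandas 2.3.3 and matplotlib 3.10.9 were used.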

Additional observations from a re-analysis of the deposited data

How the results depend on the processing

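No log2 ratio of a single gene or of the 2 sums changed sign under any alternative run. In the smallest barcodes the counts of uptake genes and of export and esterification genes 2-fold or more lower went from 1 each to 0 when scaled by the median gene ratio. In large barcodes, counts of genes 2-fold or more higher moved with the filter. With no filter beyond 1 UMI, uptake genes went from 1 to 2 and intracellular transport genes from 0 to 1. With at least 50 UMIs, export and esterification genes went from 2 to 1. For the sums and the synthesis pathway counts, 36 alternative values stayed within the counting interval (or within 1.5 times of a count) and 12 did not; for single genes and other lists these were 167 and 25. The enzyme sum in the smallest barcodes (1.01) was 1.09 when scaled by the median gene ratio, 1.07 without the 50 most abundant genes in the denominator and 0.99 at 300 to under 400 UMIs, and the sensing and transport sum there (1.43) was 1.51 and 1.49 under the first and second of these. In the middle band the enzyme sum (1.11) was 1.05 when scaled by the median gene ratio, 1.19 at 700 to under 1000 UMIs and 1.36 with free RNA taken off, and the sensing and transport sum (1.97) was 2.14 and 2.13 under the last 2. In large barcodes the enzyme sum (1.71) was 1.87 at a minimum of 1500 UMIs and 2.29 with free RNA taken off. Counting intervals are narrow in the smallest barcodes, so small shifts pass them. No paired analysis was possible because each group holds 1 library, and for the same reason no replicate could be left out.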

Other observations

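Within the GS_KO library, large barcodes with a UMI of Hmgcs1 (516 of 1834) held more of the other 4 enzymes than those without, at 910 and 732 CPM (log2 ratio 0.31, 0.18 to 0.45), while Insig2 stood at 1093 and 1121 CPM (-0.04, -0.16 to 0.08) and Stard4 at 118 and 83.1 CPM (0.50, 0.10 to 0.90). In the control library, with 117 such barcodes, the other 4 enzymes had a log2 ratio of 0.17 (-0.32 to 0.60). Median UMIs of the barcodes with and without Hmgcs1 were 1260 and 1187 in the GS_KO library.

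Large GS_KO barcodes with a UMI of Cyp2c39, a cytochrome P450 (335 barcodes), held less of the summed enzymes than the others, at 850 and 1119 CPM (-0.40, -0.55 to -0.24), and more Insig2, at 1302 and 1067 CPM (0.29, 0.16 to 0.42). Those with at least 2 of Csf1, Birc3, Relb and Icam1, genes of inflammatory signalling (152 barcodes), stood at 1257 and 1048 CPM for the enzymes (0.27, 0.08 to 0.45) and at 1049 and 1119 CPM for Insig2 (-0.09, -0.30 to 0.10). In the control library the Cyp2c39 split (893 barcodes with a UMI) gave 348 and 302 CPM for the enzymes (0.20, -0.02 to 0.42) and 101 and 84.1 CPM for Insig2 (0.26, -0.15 to 0.68). For the inflammatory genes the control library had 6 such barcodes, too few to compare. Large barcodes with a UMI of Tox or Tenm3 held less of the enzymes than the others in both libraries, at 935 and 1149 CPM for GS_KO (-0.30, -0.42 to -0.18) and 297 and 362 CPM for control (-0.28, -0.50 to -0.07). Insig2 in that split stood at 1235 and 1036 CPM for GS_KO (0.25, 0.14 to 0.36) and 91.9 and 94.4 CPM for control (-0.04, -0.45 to 0.38). Barcodes with these genes were larger at the median than those without. For Cyp2c39 the median UMIs were 1284 and 1196 in GS_KO and 1210 and 1174 in control. For Tox or Tenm3 they were 1301 and 1168 in GS_KO and 1234 and 1156 in control, and for the inflammatory genes 1285 and 1205 in GS_KO. The part of barcode size in these differences was not tested. These splits were chosen with earlier results on these libraries known, and the intervals cover counting error only.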
